A study of Mus musculus with 9 samples.

Results

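F-box proteins are the substrate-binding subunits of SCF ubiquitin ligases. Their genes were compared across 9 arrays of Dgcr8-deficient mouse embryonic stem (ES) cells, 12 h after transfection of let-7c or miR-294 mimic, or of no mimic at all (mock). Members were the probe sets whose single annotated gene symbol is Fbxl, Fbxo or Fbxw followed by a number. The rule used names and no measured value. It gave 73 probe sets for 70 of the 19938 genes named on the array: 17 Fbxl, 36 Fbxo and 17 Fbxw genes. Of these 70 genes, 53 passed the filter on dim probe sets and were tested, and 17 did not.

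All 9 samples were Dgcr8 -/- ES cells, so the mock cells carry the deletion as well. Each group had 3 samples, which the labels call biological replicates; the labels do not say whether they came from separate cultures, so p-values measure the spread between these samples. The mimics were used at 50 nM with the reagent Dharmafect 1, and all cells were grown without leukaemia inhibitory factor (LIF) until harvest. No control mimic is named in the labels, and what any transfected RNA would do is thus part of each difference from mock. Dgcr8 binds microRNA precursors in the nucleus, and without it most microRNAs are not made. miR-294 is abundant in normal ES cells, and let-7 microRNAs are abundant in differentiated cells.

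In an SCF ligase the scaffold Cul1 holds the RING protein Rbx1 at one end and the adaptor Skp1 at the other. Skp1 binds the F-box, a short domain that gives the family its name, and the rest of the F-box protein binds the substrate. Fbxl proteins do so through leucine-rich repeats and Fbxw proteins through WD40 repeats, while Fbxo proteins carry other domains or none that is known. Substrates include cyclins, inhibitors of the cell cycle and transcription factors, and several F-box proteins are known to act in the cell cycle and in stem cells. The arrays measure the RNA of the F-box genes, not the proteins or the ligases' activity.

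The mimics carry different seeds, the bases with which a microRNA pairs with its targets, and for this reason both mature sequences are shown. They are given 5′ to 3′ from RefSeq (GRCm38.p6), with the seed, bases 2 to 8, in capitals.
let-7c-5p: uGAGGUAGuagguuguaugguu
miR-294-3p: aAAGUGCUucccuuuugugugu
A transcript stretch that pairs with the let-7c seed reads CUACCUC, and one that pairs with the miR-294 seed reads AGCACUU. Transcript sequences of the F-box genes were not used here, so the data below do not say which members hold such a stretch.

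The values are log2 intensities, so a difference of 1 is a 2-fold change. Genes entered the test where 3 arrays or more exceeded a filter level, the 40th percentile over that array's probe sets (6.84 to 6.90). Differences come from 1 limma fit of all 13182 tested genes over the 9 arrays, the ± after a difference is its standard error (n = 3 per group), and a gene was called changed at a Benjamini-Hochberg adjusted p under 0.05. The fit was repeated under 17 alternatives (the leave-one-outs of the 9 arrays, other filters, scalings, probe set rules and variance settings, and a replicate block). The stricter filter left out 16 dim members, Fbxl4, Fbxo4 and Fbxo10 among them, so for these "every alternative" means every other one. An alternative also left out 5 partner genes, Senp8 among them. A call is said to fail, or a difference to pass, under an alternative that moves its adjusted p across the threshold, with that p in brackets. Levels are not compared between genes, since a probe set's brightness depends on its probes.

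F-box genes changed with either mimic, in both directions and by modest amounts. With let-7c, 9 of the 53 tested F-box genes rose and 8 fell relative to mock. Fbxo4, linked to cyclin D1, had the largest rise (0.37) and Fbxo15, an ES cell marker, the largest fall (-0.52). The rise of Fbxo4, from a dim probe set, was a call that failed under several alternatives. With miR-294, 7 rose and 12 fell. Here Fbxo33 had the largest rise (0.37), and Fbxo11 the largest fall (-0.53) of those measured above the filter level in both groups. Fbxl4, for a mitochondrial protein, fell to below that level. Between the mimics, 18 F-box genes were higher with let-7c and 8 lower. None of the called F-box genes reached a 2-fold difference in these comparisons.

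With both directions counted together, the shares called are near those of the array as a whole. With let-7c 32.1% of the tested F-box genes were called (17% higher and 15.1% lower), and 28.7% of all tested genes were (13.9% higher and 14.8% lower). With miR-294 the share was 35.8% (13.2% higher and 22.6% lower), beside 41.9% of all tested genes (20.7% higher and 21.1% lower). Between the mimics it was 49.1%, beside 50.8%. In that comparison 34% of the F-box genes were higher with let-7c and 15.1% lower, beside 26.2% and 24.5% of all tested genes. No test of these splits was run. The median difference of the 53 genes was 0.03 with let-7c, -0.01 with miR-294 and 0.05 between the mimics, against 0.02, 0.02 and -0.01 over all tested genes. Counted by whether the 2 groups' arrays had no overlap, 18 F-box genes (34%) stood apart with let-7c, 24 (45.3%) with miR-294 and 31 (58.5%) between the mimics. The same count over all tested genes was 43.9%, 53.8% and 57%. At least 1 of the 3 comparisons called 33 of the 53 members (62.3%), beside 62.9% of all tested genes.

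**Figure D1:**
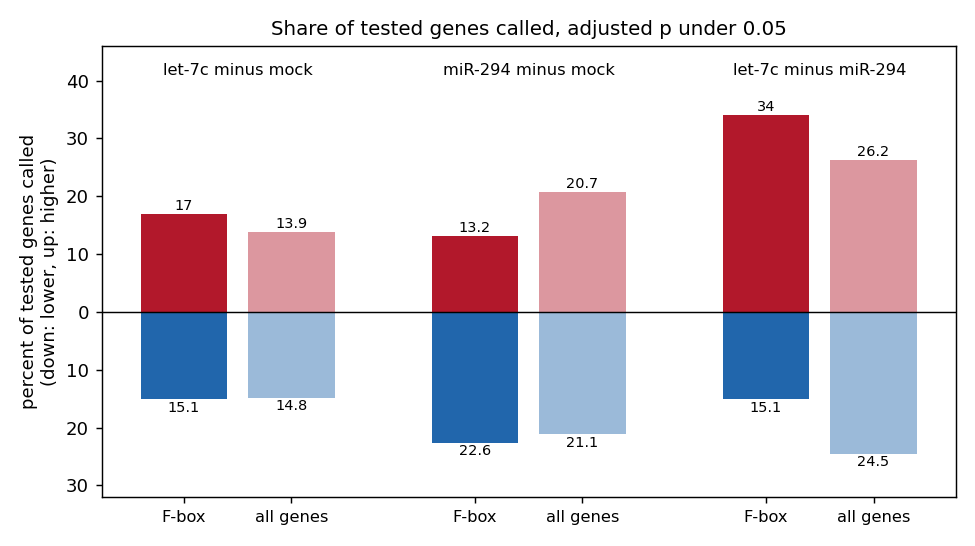
Share of tested genes called at an adjusted p under 0.05, in percent, upward bars for higher and downward bars for lower, for the 53 tested F-box genes (dark) and all 13182 tested genes (light) in each comparison. With let-7c 17% of F-box genes were higher than mock and 15.1% lower, beside 13.9% and 14.8% of all genes. With miR-294 it was 13.2% and 22.6%, beside 20.7% and 21.1%. Between the mimics 34% of F-box genes were higher with let-7c and 15.1% lower, beside 26.2% and 24.5%.

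By class, 4 of 15 tested Fbxl genes were called with let-7c, 2 in each direction, and 5 with miR-294, 2 higher and 3 lower. Of 30 tested Fbxo genes, 5 rose and 6 fell with let-7c; with miR-294 3 rose and 9 fell. Of 8 tested Fbxw genes, 2 rose with either mimic and 0 fell. The WD40 class is small, and its members' differences from mock lay between -0.08 and 0.22. At an unadjusted p under 0.05 the limma fit counted 2 Fbxw genes higher and 0 lower with let-7c, and 3 higher and 0 lower with miR-294. At that threshold 20.6% of all tested genes were higher and 19.6% lower with let-7c, and 25.6% and 24% with miR-294.

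**Figure D2:**
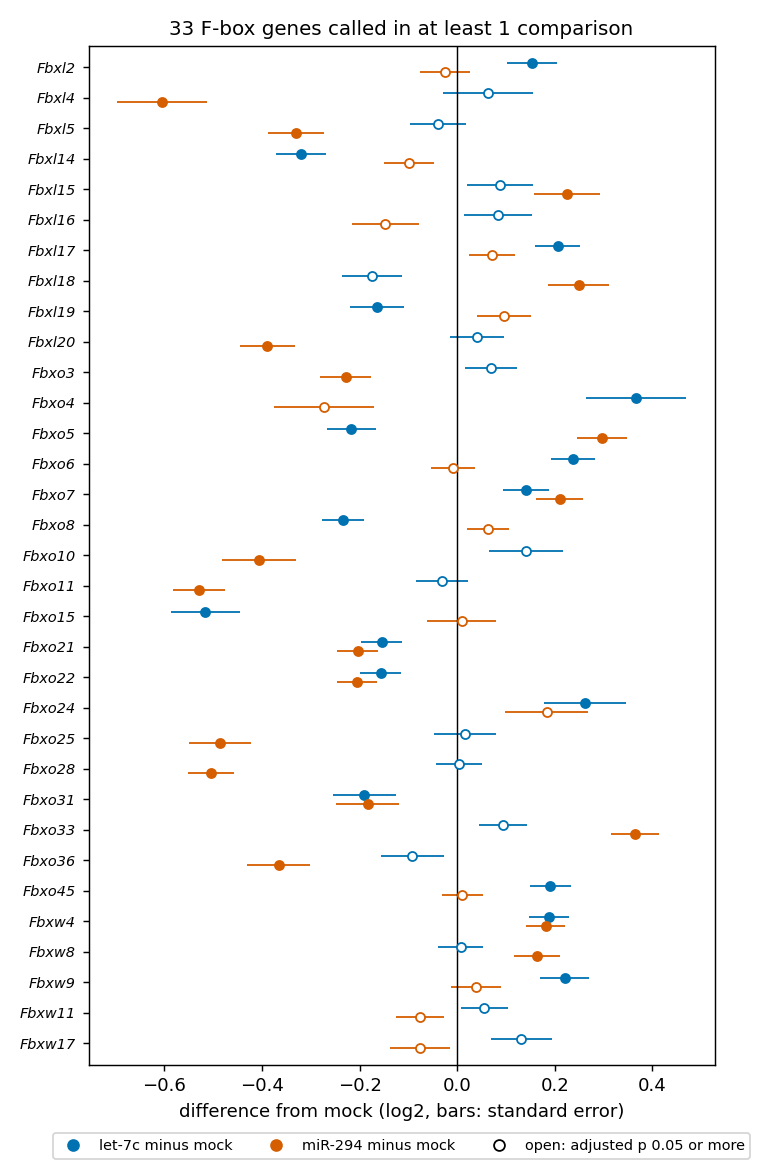
Difference from mock (log2, bars show the standard error, n = 3 per group) of the 33 F-box genes called in at least 1 comparison, let-7c in blue and miR-294 in orange; filled points passed an adjusted p of 0.05. Fbxo11, Fbxo28 and Fbxo25 fell with miR-294 while let-7c lay near 0, the point of Fbxl4 rests on miR-294 arrays below the filter level, and the fall with let-7c is largest for Fbxo15.

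Among F-box genes with a role in cell division, Fbxo5 was the one that let-7c lowered and miR-294 raised. Fbxo5 encodes Emi1, which holds back the anaphase-promoting complex so that cyclins build up before mitosis. The mock arrays read 10.52, 10.51 and 10.55, the let-7c arrays 10.26, 10.30 and 10.37 and the miR-294 arrays 10.89, 10.83 and 10.74. The 3 groups did not overlap: every let-7c array lay below, and every miR-294 array above, all mock arrays. Fbxo5 fell with let-7c (-0.22 ± 0.05, adjusted p = 0.00896) and rose with miR-294 (0.30 ± 0.05, adjusted p = 0.000799). The mimics differed by -0.51 ± 0.05, adjusted p = 8.04e-06, a 1.43-fold lower level with let-7c. These 3 calls held under every alternative run.

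Fbxo4 has been described as an F-box protein for cyclin D1 and for the telomere protein TRF1. Its mock arrays read 7.30, 7.00 and 6.96, the let-7c arrays 7.44, 7.35 and 7.56 and the miR-294 arrays 6.96, 6.85 and 6.63. All let-7c arrays lay above all others, while the mock and miR-294 ranges overlapped. Fbxo4 rose with let-7c (0.37 ± 0.10, adjusted p = 0.0213). This call failed on leaving out let-7c replicate 1 (0.0522) or 3 (0.081) or mock replicate 2 (0.0783) or 3 (0.0811) and in the fit of all probe sets (0.0532); the lowest over all alternatives was 0.00546. With miR-294 it did not pass (-0.27 ± 0.10, adjusted p = 0.0533), though it did on leaving out miR-294 replicate 1 (0.0284) or mock replicate 3 (0.0392), under quantile normalization (0.0489), with an intensity trend and robust prior (0.0411), and with a replicate block (0.0298); the highest over all alternatives was 0.198. The difference between the mimics, 0.64 ± 0.10, adjusted p = 0.000314, held under every alternative. Its probe set was dim: only 7 of the 9 arrays lay above the filter level. Those below it were miR-294 replicates 2 and 3 (6.85 and 6.63), and the miR-294 mean was 6.81. The differences of Fbxo4 from miR-294 thus rest partly on values below that level.

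Fbxo31 is known to direct cyclin D1 for degradation after DNA damage. The mock arrays of Fbxo31 read 9.27, 9.14 and 9.08, the let-7c arrays 9.03, 8.88 and 9.01 and the miR-294 arrays 9.03, 8.89 and 9.03. All arrays of both treated groups lay below the mock arrays. The fall with let-7c (-0.19 ± 0.06, adjusted p = 0.0472) failed on leaving out let-7c replicate 1 (0.0518), 2 (0.15) or 3 (0.0756), miR-294 replicate 1 (0.0535) or 3 (0.0544) or mock replicate 1 (0.166) or 2 (0.0893), with no filter (0.0875), under quantile normalization (0.0564), with arrays centred on the 75th percentile (0.0528), with the mean of its probe sets (0.318), and in the fit of all probe sets (0.0835); the lowest over all alternatives was 0.0178. The fall with miR-294 (-0.18 ± 0.06, adjusted p = 0.0401) failed on leaving out let-7c replicate 3 (0.051), miR-294 replicate 2 (0.145) or 3 (0.0504) or mock replicate 1 (0.154) or 2 (0.072), with no filter (0.0719), under quantile normalization (0.0749), with arrays centred on the 75th percentile (0.0692), with the mean of its probe sets (0.772), and in the fit of all probe sets (0.0703); the lowest over all alternatives was 0.015. Fbxo31 had a second, dimmer probe set, which went the other way: it read 7.68, 7.72 and 7.71 with mock and 7.84, 7.81 and 7.89 with miR-294, a rise of 0.14 ± 0.04 (adjusted p = 0.0253 in the limma fit over every probe set). With let-7c that probe set differed from mock by 0.05 ± 0.04 (adjusted p = 0.43). The direction of Fbxo31 with miR-294 differed between its probe sets.

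Fbxo11 and Fbxo28 fell with miR-294 and were near mock with let-7c. Fbxo11 targets the transcriptional repressor BCL6 and CDT2, the substrate receptor of another cullin ligase. Its mock arrays read 10.52, 10.56 and 10.44 and its let-7c arrays 10.40, 10.54 and 10.48, while the miR-294 arrays read 10.01, 9.92 and 10.00. All 3 miR-294 arrays lay below the other 6, which overlapped one another. The fall with miR-294 was 1.44-fold (-0.53 ± 0.05, adjusted p = 1.97e-05); with let-7c the difference was -0.03 ± 0.05, adjusted p = 0.711. Fbxo28 has been described to ubiquitylate Myc without degrading it. It read 9.61, 9.66 and 9.58 with mock, 9.55, 9.68 and 9.63 with let-7c and 9.12, 9.13 and 9.08 with miR-294, again with the miR-294 arrays below the other 6. Its difference was -0.50 ± 0.05, adjusted p = 1.11e-05 with miR-294 and 0.00 ± 0.05, adjusted p = 0.958 with let-7c. The direct comparison called both genes higher with let-7c, Fbxo11 by 0.50 ± 0.05, adjusted p = 1.4e-05 and Fbxo28 by 0.51 ± 0.05, adjusted p = 4.54e-06. The calls on both genes held under every alternative.

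Fbxw7 and Fbxw11, among the best known members, had small differences. Fbxw7 binds cyclin E, Myc and Notch, and its mock arrays read 8.96, 9.10 and 9.03, the let-7c arrays 8.92, 9.18 and 9.05 and the miR-294 arrays 9.18, 9.28 and 9.15. The miR-294 arrays lay above all mock arrays, but the difference missed the threshold (0.17 ± 0.07, adjusted p = 0.0594). It passed on leaving out let-7c replicate 1 (0.0322) or 2 (0.036), with the stricter filter (0.0408), under quantile normalization (0.0265), with arrays centred on the 75th percentile (0.0302), with an intensity trend and robust prior (0.0381), and with a replicate block (0.0128); the highest over all alternatives was 0.184. The let-7c difference was 0.02 ± 0.07, adjusted p = 0.863, and that between the mimics -0.15 ± 0.07, adjusted p = 0.078, which passed on leaving out let-7c replicate 2 (0.0183), under quantile normalization (0.0368), with arrays centred on the 75th percentile (0.0429), and with a replicate block (0.0178); the highest over all alternatives was 0.268. Fbxw11 encodes a beta-TrCP, which binds phosphorylated beta-catenin and the inhibitor of NF-kappaB. It read 9.50, 9.49 and 9.43 with mock, 9.51, 9.60 and 9.46 with let-7c and 9.35, 9.41 and 9.42 with miR-294. Neither mimic's difference from mock passed (0.06 ± 0.05, adjusted p = 0.424 with let-7c; -0.08 ± 0.05, adjusted p = 0.233 with miR-294). Between the mimics it was higher with let-7c (0.13 ± 0.05, adjusted p = 0.0413), a call that failed on leaving out let-7c replicate 1 (0.0618) or 2 (0.151), miR-294 replicate 1 (0.118), 2 (0.0713) or 3 (0.0602) or mock replicate 1 (0.0537), 2 (0.0561) or 3 (0.05003), with no filter (0.081), under quantile normalization (0.0549), with arrays centred on the 75th percentile (0.0852), and in the fit of all probe sets (0.056); the lowest over all alternatives was 0.0249.

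Fbxo15 is a marker of undifferentiated ES cells, switched on by Oct4 and Sox2 and used in early reprogramming screens. The Fbxo15 values were 10.60, 10.72 and 10.51 with mock, 10.05, 10.21 and 10.03 with let-7c and 10.65, 10.70 and 10.52 with miR-294. The let-7c arrays lay below all others, and the mock and miR-294 arrays overlapped. Fbxo15 fell 1.43-fold with let-7c (-0.52 ± 0.07, adjusted p = 0.000402) and differed from mock by 0.01 ± 0.07, adjusted p = 0.93 with miR-294. The mimics differed by -0.52 ± 0.07, adjusted p = 8.83e-05, and both calls held under every alternative.

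Markers of the cells' state moved in the same arrays. All 8 ES cell markers checked were above the filter level. As 66.1% of the genes named on the array passed the filter, this does not by itself identify the cells. With let-7c 5 of these 8 fell and 0 rose, and with miR-294 4 rose and 0 fell. Their mean level was 12.09 to 12.10 in the let-7c arrays, 12.27 to 12.32 in the mock arrays and 12.36 to 12.42 in the miR-294 arrays. Of 8 feeder fibroblast markers 4 passed the filter and 1 rose with miR-294. Their list's mean level was 6.59 to 6.70 with mock, 6.66 to 6.89 with let-7c and 6.69 to 6.80 with miR-294. Postn, Dcn, Lum and Pdgfrb were below the filter level in every array. Of 6 primitive endoderm markers 3 passed and 1 rose with let-7c (6.93 to 7.09 with mock, 7.06 to 7.16 with let-7c, 7.04 to 7.13 with miR-294); Sox17 and Dab2 were below the filter level in every array. Of 6 trophoblast markers 4 passed, and 1 rose and 1 fell with let-7c (7.30 to 7.36, 7.35 to 7.43 and 7.34 to 7.40, in the same order); Cdx2 and Elf5 were below the filter level in every array. Of 4 neurectoderm markers 3 passed and 1 rose with let-7c (7.97 to 8.07, 8.19 to 8.31 and 8.01 to 8.09). The part of these shifts in the F-box differences was not tested, and in such bulk samples fewer cells of a type and less RNA per cell cannot be told apart.

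Fbxl14 and Fbxl19, linked to transcription factors and chromatin, were lower with let-7c. Fbxl14 is known for binding the epithelial-mesenchymal factor Snail. It read 9.24, 9.29 and 9.31 with mock, 8.97, 9.01 and 8.91 with let-7c and 9.26, 9.20 and 9.10 with miR-294, the let-7c arrays below all others. It fell with let-7c (-0.32 ± 0.05, adjusted p = 0.000973) and differed by -0.10 ± 0.05, adjusted p = 0.148 with miR-294; it was below its miR-294 level with let-7c (-0.22 ± 0.05, adjusted p = 0.00353). Both calls on Fbxl14 held under every alternative. Fbxl19 binds unmethylated CpG islands. Its mock arrays read 9.72, 9.56 and 9.55, the let-7c arrays 9.50, 9.41 and 9.42 and the miR-294 arrays 9.73, 9.65 and 9.72. The let-7c arrays were lowest, but the fall from mock was at the threshold (-0.16 ± 0.06, adjusted p = 0.0468) and failed on leaving out let-7c replicate 2 (0.121) or 3 (0.121), miR-294 replicate 1 (0.054), 2 (0.0556) or 3 (0.0578) or mock replicate 1 (0.171) or 2 (0.0608), with no filter (0.0898), under quantile normalization (0.0809), with arrays centred on the 75th percentile (0.0581), and in the fit of all probe sets (0.076); the lowest over all alternatives was 0.0172. The difference of Fbxl19 between the mimics was firmer (-0.26 ± 0.06, adjusted p = 0.0022) and held under every alternative; that from mock with miR-294 was 0.10 ± 0.06, adjusted p = 0.192.

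Fbxo22 and Fbxo21 were lower than mock with either mimic, comparisons that share the mock arrays. Fbxo22 targets histone demethylases of the KDM4 family. The mock arrays of Fbxo22 read 11.67, 11.73 and 11.70, its let-7c arrays 11.56, 11.55 and 11.51 and its miR-294 arrays 11.52, 11.48 and 11.48. Both treated groups lay below mock, and they overlapped each other. The miR-294 fall (-0.21 ± 0.04, adjusted p = 0.00224) held under every alternative. The let-7c fall (-0.16 ± 0.04, adjusted p = 0.0158) failed on leaving out let-7c replicate 3 (0.0552) or mock replicate 2 (0.0645) and under quantile normalization (0.0839); the lowest over all alternatives was 0.00158. The mimics differed by 0.05 ± 0.04, adjusted p = 0.363, which passed under quantile normalization (0.0212); the highest over all alternatives was 0.611. Fbxo21, which binds the differentiation inhibitor EID1, read 10.32, 10.29 and 10.35 with mock, 10.15, 10.15 and 10.20 with let-7c and 10.14, 10.12 and 10.10 with miR-294. It fell with let-7c (-0.15 ± 0.04, adjusted p = 0.0169), a call that failed on leaving out mock replicate 3 (0.0654) and under quantile normalization (0.0535); the lowest over all alternatives was 0.00667. Its fall with miR-294 (-0.20 ± 0.04, adjusted p = 0.00232) held under every alternative.

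**Figure D3:**
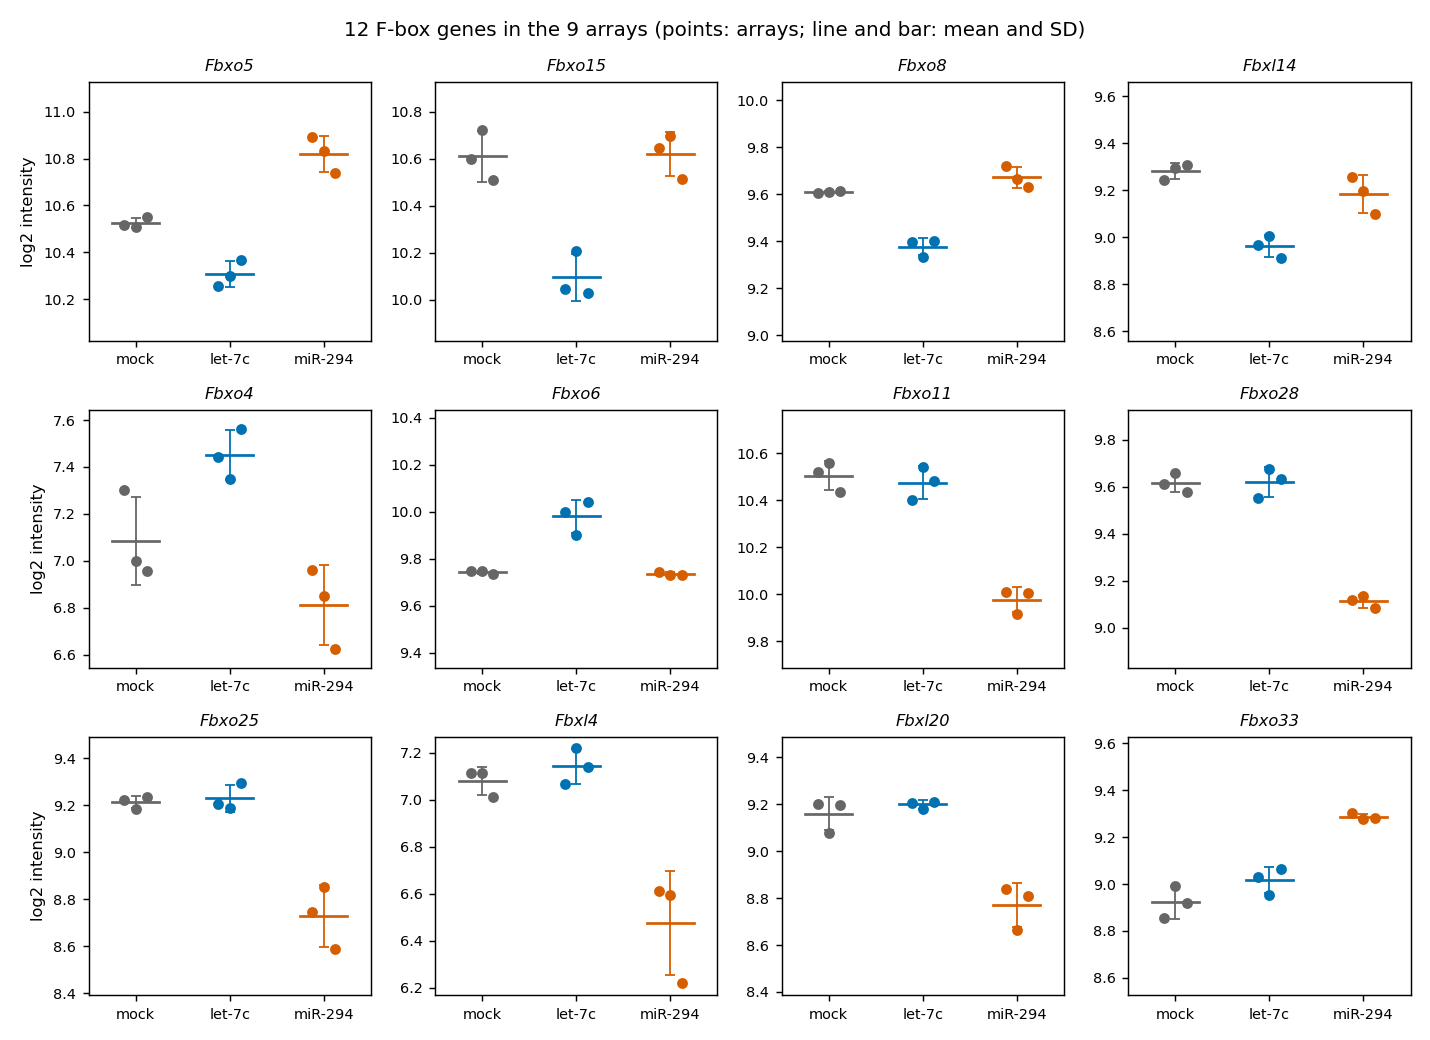
Log2 intensity of 12 F-box genes in each of the 9 arrays (points), with the mean (line) and SD (bar) of the 3 arrays per group; each panel spans the same range of 1.1 log2 units around its own centre. The let-7c arrays sit below the others for Fbxo15, Fbxo8 and Fbxl14, the miR-294 arrays sit below for Fbxo11, Fbxo28, Fbxo25, Fbxl4 and Fbxl20, and the 3 groups separate for Fbxo5.

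Of the F-box genes with a role in iron and mitochondria, Fbxl4 and Fbxl5 fell with miR-294. Fbxl4 encodes a mitochondrial protein that restrains mitophagy. It read 7.11, 7.12 and 7.01 with mock, 7.07, 7.22 and 7.14 with let-7c and 6.61, 6.60 and 6.22 with miR-294. The miR-294 arrays lay below all others, and below the filter level, which the other 6 arrays passed. Fbxl4 passed the filter only through the groups where it was higher. Against the filter level in the miR-294 arrays (mean 6.88), mock was at least 1.15-fold and let-7c at least 1.20-fold higher. The fitted differences, which rest on values below that level, were -0.60 ± 0.09, adjusted p = 0.000358 from mock and 0.67 ± 0.09, adjusted p = 0.000101 between the mimics. With let-7c the difference from mock was 0.06 ± 0.09, adjusted p = 0.652. Fbxl5 senses iron and, when iron is plentiful, directs the iron regulatory protein IRP2 for degradation. Its mock arrays read 10.10, 10.06 and 9.90, its let-7c arrays 10.03, 9.97 and 9.94 and its miR-294 arrays 9.76, 9.66 and 9.64, the last below all others. It fell with miR-294 (-0.33 ± 0.06, adjusted p = 0.000906) and differed from mock by -0.04 ± 0.06, adjusted p = 0.652 with let-7c; the mimics differed by 0.29 ± 0.06, adjusted p = 0.00133. The calls on Fbxl5 held under every alternative. Those on Fbxl4 held where it was tested, but they rest on miR-294 values below the filter level. The stricter filter left Fbxl4 out.

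Fbxo7, a Parkinson disease gene whose protein acts in mitophagy and binds a regulator of the proteasome, was higher with miR-294. It read 8.76, 8.73 and 8.86 with mock, 8.92, 8.90 and 8.95 with let-7c and 9.00, 8.96 and 9.02 with miR-294. The ranges of the 3 groups did not overlap. The rise with miR-294 (0.21 ± 0.05, adjusted p = 0.00453) held under every alternative. The rise with let-7c (0.14 ± 0.05, adjusted p = 0.0466) was at the threshold and failed on leaving out let-7c replicate 1 (0.0881), 2 (0.0643) or 3 (0.124), miR-294 replicate 1 (0.0545), 2 (0.0585) or 3 (0.0569) or mock replicate 1 (0.129) or 2 (0.165), with no filter (0.0937), in the fit of all probe sets (0.0663), and with an intensity trend and robust prior (0.0505); the lowest over all alternatives was 0.0247. The mimics did not differ by the test (-0.07 ± 0.05, adjusted p = 0.256).

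Fbxo6, whose protein binds N-glycans of misfolded glycoproteins, rose with let-7c. Related sugar-binding proteins are encoded by Fbxo2, Fbxo17, Fbxo27 and Fbxo44. The mock arrays of Fbxo6 read 9.75, 9.75 and 9.74, its let-7c arrays 10.00, 9.90 and 10.04 and its miR-294 arrays 9.74, 9.73 and 9.73. The let-7c arrays lay above the 6 others, which lay close together. The rise was 0.24 ± 0.05, adjusted p = 0.00291, and with miR-294 the difference from mock was -0.01 ± 0.05, adjusted p = 0.894; between the mimics the difference was 0.25 ± 0.05, adjusted p = 0.000844. The other sugar-binding members did not pass in any comparison: Fbxo17 differed from mock by 0.07 with let-7c and 0.03 with miR-294, Fbxo27 by 0.05 and 0.01, and Fbxo44 by 0.12 and 0.09. Fbxo2 was not tested.

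Fbxo8, whose protein carries a Sec7 domain and acts on the GTPase Arf6, was lower with let-7c. The mock arrays of Fbxo8 agreed closely, at 9.61, 9.61 and 9.61. Its let-7c arrays read 9.40, 9.33 and 9.40 and its miR-294 arrays 9.72, 9.67 and 9.63, so that the ranges of the 3 groups did not overlap. Fbxo8 fell with let-7c (-0.23 ± 0.04, adjusted p = 0.00232). With miR-294 the difference from mock was 0.06 ± 0.04, adjusted p = 0.264, and the mimics differed by -0.30 ± 0.04, adjusted p = 0.000147. Its calls held under every alternative.

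Fbxl2, a prenylated protein held at membranes, and Fbxo3, which is known to bind Fbxl2, were both above their miR-294 levels with let-7c. Against mock, Fbxl2 was called only with let-7c and Fbxo3 only with miR-294. Fbxl2 read 7.75, 7.80 and 7.77 with mock, 7.97, 7.82 and 7.97 with let-7c and 7.76, 7.76 and 7.71 with miR-294. Its let-7c arrays were highest, one of them only narrowly. The rise with let-7c (0.15 ± 0.05, adjusted p = 0.0432) failed on leaving out let-7c replicate 1 (0.124) or 3 (0.134), miR-294 replicate 1 (0.0511), 2 (0.0575) or 3 (0.0515) or mock replicate 1 (0.117), 2 (0.0741) or 3 (0.1), with no filter (0.0859), under quantile normalization (0.0666), in the fit of all probe sets (0.0663), and with an intensity trend and robust prior (0.0774); the lowest over all alternatives was 0.0109. Against miR-294, Fbxl2 was higher with let-7c under every alternative (0.18 ± 0.05, adjusted p = 0.0118); miR-294 differed from mock by -0.03 ± 0.05, adjusted p = 0.715. Fbxo3 read 10.40, 10.32 and 10.33 with mock, 10.48, 10.37 and 10.41 with let-7c and 10.21, 10.09 and 10.07 with miR-294. The miR-294 arrays were lowest. It fell with miR-294 (-0.23 ± 0.05, adjusted p = 0.00494), differed by 0.07 ± 0.05, adjusted p = 0.354 with let-7c, and was above its miR-294 level with let-7c (0.30 ± 0.05, adjusted p = 0.000592). Both calls on Fbxo3 held under every alternative.

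Fbxl20 and Fbxo10 fell with miR-294 as well. Fbxl20, known from synapses as Scrapper, read 9.20, 9.08 and 9.20 with mock, 9.21, 9.18 and 9.21 with let-7c and 8.84, 8.66 and 8.81 with miR-294. It fell 1.31-fold with miR-294 (-0.39 ± 0.06, adjusted p = 0.000236), differed from mock by 0.04 ± 0.06, adjusted p = 0.625 with let-7c and differed between the mimics by 0.43 ± 0.06, adjusted p = 6.32e-05. Fbxo10 has been described to target the survival factor BCL2. The Fbxo10 values were 7.46, 7.46 and 7.66 with mock, 7.66, 7.64 and 7.70 with let-7c and 6.95, 7.19 and 7.21 with miR-294. The fall with miR-294 was -0.41 ± 0.08, adjusted p = 0.00139, the let-7c difference 0.14 ± 0.08, adjusted p = 0.19 and that between the mimics 0.55 ± 0.08, adjusted p = 0.000102. For both genes the miR-294 arrays lay below all others, and the calls held under every alternative.

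Among F-box genes linked to signalling and development, Fbxo33 and Fbxl18 rose with miR-294. Fbxo33, described to bind the RNA-binding protein YB-1, read 8.85, 8.99 and 8.92 with mock, 9.03, 8.95 and 9.06 with let-7c and 9.30, 9.28 and 9.28 with miR-294. The miR-294 arrays lay close together, above all others. Fbxo33 had the largest rise of any F-box gene with miR-294 (1.29-fold; 0.37 ± 0.05, adjusted p = 0.000148); let-7c differed from mock by 0.09 ± 0.05, adjusted p = 0.18 and from miR-294 by -0.27 ± 0.05, adjusted p = 0.000721. Fbxl18 read 8.49, 8.49 and 8.51 with mock, 8.31, 8.25 and 8.42 with let-7c and 8.63, 8.85 and 8.77 with miR-294, 3 ranges that did not overlap. It rose with miR-294 (0.25 ± 0.06, adjusted p = 0.00787) and was below its miR-294 level with let-7c (-0.42 ± 0.06, adjusted p = 0.000157). Its let-7c difference from mock missed the threshold (-0.17 ± 0.06, adjusted p = 0.0571) and passed on leaving out let-7c replicate 3 (0.0355) or miR-294 replicate 1 (0.0306) or 2 (0.0472), with the stricter filter (0.0371), under quantile normalization (0.047), and with a replicate block (0.0436); the highest over all alternatives was 0.167. Fbxl18 is reported to act on another F-box protein, Fbxl7.

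Fbxl15 directs Smurf1, a ligase that dampens BMP signalling. It read 7.87, 7.69 and 7.98 with mock, 7.90, 7.98 and 7.92 with let-7c and 8.07, 8.02 and 8.13 with miR-294. The miR-294 arrays were highest, above a wide mock range. The rise (0.23 ± 0.07, adjusted p = 0.0193) failed on leaving out miR-294 replicate 3 (0.0686) or mock replicate 2 (0.0712); the lowest over all alternatives was 0.00622. The let-7c difference was 0.09 ± 0.07, adjusted p = 0.361, and that between the mimics -0.14 ± 0.07, adjusted p = 0.111, which passed on leaving out mock replicate 2 (0.0466); the highest over all alternatives was 0.274. Fbxl17, which takes apart wrongly paired BTB proteins, read 10.24, 10.16 and 10.15 with mock, 10.41, 10.33 and 10.42 with let-7c and 10.28, 10.21 and 10.27 with miR-294. Its let-7c arrays were highest. The rise with let-7c (0.21 ± 0.05, adjusted p = 0.00764) held under every alternative, and miR-294 differed from mock by 0.07 ± 0.05, adjusted p = 0.248. The difference of Fbxl17 between the mimics (0.13 ± 0.05, adjusted p = 0.0319) failed on leaving out let-7c replicate 1 (0.0768) or 3 (0.0963) or miR-294 replicate 2 (0.112) or 3 (0.0551), with no filter (0.0655), and with arrays centred on the 75th percentile (0.0598); the lowest over all alternatives was 0.00912.

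Fbxo45, which pairs with the ligase Mycbp2 in place of Cul1, rose with let-7c. It read 9.02, 8.98 and 9.05 with mock, 9.24, 9.20 and 9.17 with let-7c and 9.03, 9.04 and 9.00 with miR-294, the let-7c arrays above the rest. Its differences were 0.19 ± 0.04, adjusted p = 0.00662 with let-7c, 0.01 ± 0.04, adjusted p = 0.861 with miR-294 and 0.18 ± 0.04, adjusted p = 0.00392 between the mimics. Fbxw4, altered in the limb mutant Dactylaplasia, read 7.99, 7.94 and 7.95 with mock, 8.17, 8.15 and 8.12 with let-7c and 8.13, 8.15 and 8.14 with miR-294. Both treated groups lay above mock and overlapped each other. Fbxw4 rose with let-7c (0.19 ± 0.04, adjusted p = 0.00586) and with miR-294 (0.18 ± 0.04, adjusted p = 0.00439), comparisons that share the mock arrays; the mimics differed by 0.01 ± 0.04, adjusted p = 0.907. The calls on Fbxo45 and Fbxw4 held under every alternative.

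Fbxw8, the F-box partner of Cul7 in placental and neuronal growth, read 9.88, 9.88 and 9.84 with mock, 9.83, 9.89 and 9.90 with let-7c and 9.96, 10.03 and 10.09 with miR-294. The miR-294 arrays were highest. The rise of Fbxw8 with miR-294 (0.16 ± 0.05, adjusted p = 0.0152) failed on leaving out miR-294 replicate 3 (0.0617) or mock replicate 3 (0.054); the lowest over all alternatives was 0.00604. Its difference between the mimics (-0.16 ± 0.05, adjusted p = 0.0147) failed on leaving out miR-294 replicate 3 (0.0618); the lowest over all alternatives was 0.0062. With let-7c it differed from mock by 0.01 ± 0.05, adjusted p = 0.922.

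Fbxo25 and Fbxo36 fell with miR-294. Fbxo25 is the closest relative of the muscle atrophy gene Fbxo32. Its mock arrays read 9.22, 9.19 and 9.24, its let-7c arrays 9.21, 9.19 and 9.30 and its miR-294 arrays 8.75, 8.85 and 8.59. The miR-294 arrays lay well below the other 6, a 1.4-fold fall (-0.49 ± 0.06, adjusted p = 0.000121); let-7c differed from mock by 0.02 ± 0.06, adjusted p = 0.883 and from miR-294 by 0.50 ± 0.06, adjusted p = 5.28e-05. Fbxo32 itself read 7.34 to 7.36 with mock, 7.36 to 7.40 with let-7c and 7.21 to 7.35 with miR-294 and was not called in any comparison. Fbxo36 read 8.49, 8.57 and 8.61 with mock, 8.38, 8.51 and 8.50 with let-7c and 8.11, 8.32 and 8.14 with miR-294. The miR-294 arrays were lowest. It fell with miR-294 (-0.37 ± 0.06, adjusted p = 0.000944), differed by -0.09 ± 0.06, adjusted p = 0.315 with let-7c and was above its miR-294 level with let-7c (0.27 ± 0.06, adjusted p = 0.00399). The calls on Fbxo25 and Fbxo36 held under every alternative.

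The remaining called members are less well known. Fbxw9 read 8.42, 8.47 and 8.44 with mock, 8.68, 8.63 and 8.69 with let-7c and 8.38, 8.55 and 8.51 with miR-294. Its let-7c arrays lay above all others, a rise of 0.22 ± 0.05, adjusted p = 0.0082, while miR-294 differed from mock by 0.04 ± 0.05, adjusted p = 0.567; the mimics differed by 0.18 ± 0.05, adjusted p = 0.011. Fbxo24 read 6.97, 7.24 and 7.06 with mock, 7.46, 7.22 and 7.38 with let-7c and 7.23, 7.18 and 7.41 with miR-294. The let-7c and mock ranges overlapped, and the rise with let-7c (0.26 ± 0.08, adjusted p = 0.0385) failed on leaving out let-7c replicate 1 (0.13) or 3 (0.1) or mock replicate 1 (0.131) or 3 (0.0992), with no filter (0.0693), under quantile normalization (0.0522), and in the fit of all probe sets (0.0785); the lowest over all alternatives was 0.0204. The miR-294 difference of Fbxo24 was 0.18 ± 0.08, adjusted p = 0.105, which passed on leaving out mock replicate 2 (0.0409); the highest over all alternatives was 0.33; between the mimics it was 0.08 ± 0.08, adjusted p = 0.468.

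Fbxl16 and Fbxw17 were called between the mimics alone. Fbxl16 read 7.60, 7.47 and 7.58 with mock, 7.61, 7.53 and 7.76 with let-7c and 7.37, 7.34 and 7.51 with miR-294. It was above its miR-294 level with let-7c (0.23 ± 0.07, adjusted p = 0.0157), a call that failed on leaving out let-7c replicate 3 (0.0681) or miR-294 replicate 2 (0.0613); the lowest over all alternatives was 0.00225. Against mock, Fbxl16 differed by 0.08 ± 0.07, adjusted p = 0.396 with let-7c and -0.15 ± 0.07, adjusted p = 0.112 with miR-294; the latter passed with a replicate block (0.0285); the highest over all alternatives was 0.28. Fbxw17 read 7.52, 7.55 and 7.66 with mock, 7.78, 7.62 and 7.72 with let-7c and 7.42, 7.58 and 7.49 with miR-294. In both genes the let-7c arrays lay above all miR-294 arrays, and mock overlapped both. Fbxw17 differed between the mimics by 0.21 ± 0.06, adjusted p = 0.015, which failed on leaving out let-7c replicate 1 (0.0562) or miR-294 replicate 1 (0.0586); the lowest over all alternatives was 0.00876; against mock it differed by 0.13 ± 0.06, adjusted p = 0.134 with let-7c and -0.08 ± 0.06, adjusted p = 0.349 with miR-294.

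No comparison called the other 20 tested members, 5 Fbxl, 12 Fbxo and 3 Fbxw genes. They are Fbxl6, Fbxl7, Fbxl8, Fbxl12, Fbxl22, Fbxo9, Fbxo17, Fbxo27, Fbxo30, Fbxo32, Fbxo34, Fbxo38, Fbxo40, Fbxo41, Fbxo42, Fbxo44, Fbxo46, Fbxw2, Fbxw5 and Fbxw7. Their differences lay between -0.15 and 0.18 in the 3 comparisons, with standard errors of 0.04 to 0.09. Fbxo38 read 10.16 to 10.19 with mock, 10.16, 10.16 and 10.16 with let-7c and 10.14 to 10.18 with miR-294. Fbxo42, an F-box protein described for p53, read 10.06 to 10.16, 10.02 to 10.08 and 10.06 to 10.17 in the same order. Fbxl8 differed by 0.18 ± 0.09, adjusted p = 0.147 with let-7c, which passed on leaving out let-7c replicate 2 (0.0408) and with a replicate block (0.0178); the highest over all alternatives was 0.435. Fbxl6 differed by 0.14 ± 0.06, adjusted p = 0.0982 with miR-294, which passed on leaving out miR-294 replicate 2 (0.0467) and with a replicate block (0.0194); the highest over all alternatives was 0.302.

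Between the mimics, a few of these 20 genes passed under single alternatives. Fbxl6 (-0.11 ± 0.06, adjusted p = 0.162) passed with a replicate block (0.04); the highest over all alternatives was 0.446. Fbxo30 (-0.10 ± 0.05, adjusted p = 0.116) passed on leaving out miR-294 replicate 3 (0.0396) and with arrays centred on the 75th percentile (0.0485); the highest over all alternatives was 0.381. Fbxo32 (0.11 ± 0.05, adjusted p = 0.0665) passed on leaving out miR-294 replicate 2 (0.0264); the highest over all alternatives was 0.208. Fbxl22 (-0.15 ± 0.07, adjusted p = 0.1) passed on leaving out let-7c replicate 3 (0.0206) and with arrays centred on the 75th percentile (0.0492). Its highest adjusted p over all alternatives was 0.357. Only 5 of the 9 arrays of Fbxl22 were above the filter level, and let-7c replicates 1 and 2 (6.68 and 6.87) were not. Fbxl7 (0.12 ± 0.08, adjusted p = 0.218) passed with the mean of its probe sets (0.00111), and the highest over all alternatives was 0.655. That mean includes a second, dim probe set with 1 of its 9 arrays above the filter level and every miR-294 array below it.

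The 17 untested members were Fbxl13, Fbxl21, Fbxo2, Fbxo16, Fbxo39, Fbxo43, Fbxo47, Fbxo48 and 9 Fbxw genes. Their array values lay between 3.45 and 7.02, and 15 of the 17 had 0 arrays above the filter level. Fbxo43, the germ cell relative of Emi1, read 5.98 to 6.03 with mock, 5.98 to 6.26 with let-7c and 6.04 to 6.10 with miR-294. Of the 9 Fbxw genes, 8 (Fbxw13, Fbxw15, Fbxw18, Fbxw20, Fbxw21, Fbxw22, Fbxw24 and Fbxw26) belong to a row of 15 neighbouring protein-coding Fbxw genes in RefSeq's GRCm38.p6 annotation. These are close copies of one another, so their probe sets may share signal and are uncertain; 2 further probe sets that carry several Fbxw symbols were not used. Fbxw10 was the other untested Fbxw gene. A probe set for Fbxl12os, an RNA from the other strand of Fbxl12, is no member by the rule.

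Besides Fbxo31, Fbxl7 and Fbxw7 had 2 probe sets. Fbxl7's second probe set read 6.78, 6.77 and 6.82 with mock, 6.85, 6.89 and 6.84 with let-7c and 6.70, 6.42 and 6.50 with miR-294, and 1 of its 9 arrays was above the filter level. The second set of Fbxw7 lay at 4.86 to 5.24 over all arrays, with 0 arrays above that level. Neither second set was tested.

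Genes for partners of F-box proteins were measured from the same fit, as 5 lists written with earlier results of these data known. The lists include F-box genes with other symbols and other cullins, and all their genes are called partner genes in this report. Of the 5 genes tested in the list named SCF core, 1 rose and 2 fell with let-7c, and with miR-294 3 rose and 1 fell (medians -0.18 and 0.26). This list holds Rnf7 and Cks1b besides the subunits Cul1, Rbx1 and Skp1. Rnf7 and Cks1b were among the 3 that rose with miR-294, and the median of 0.26 is Rnf7's value. Among the subunits Rbx1 rose with miR-294, Cul1 fell and Skp1 was not called. Rnf7, a RING protein related to Rbx1 that serves Cul5 in particular, read 8.61, 8.80 and 8.62 with mock, 7.99, 7.96 and 8.22 with let-7c and 8.87, 9.01 and 8.94 with miR-294. It fell with let-7c (-0.62 ± 0.08, adjusted p = 0.000197) and rose with miR-294 (0.26 ± 0.08, adjusted p = 0.0175); the rise failed on leaving out miR-294 replicate 2 (0.065) or mock replicate 1 (0.0629) or 3 (0.0622); the lowest over all alternatives was 0.00767. Cks1b, the small cofactor with which Skp2 binds its substrate p27, rose with miR-294 (0.44 ± 0.04, adjusted p = 1.55e-05) and differed by -0.11 ± 0.04, adjusted p = 0.0758 with let-7c, which passed with the stricter filter (0.0457) and with an intensity trend and robust prior (0.0405); the highest over all alternatives was 0.201. The scaffold gene Cul1 fell with miR-294 (-0.24 ± 0.06, adjusted p = 0.00623); its fall with let-7c (-0.18 ± 0.06, adjusted p = 0.0339) failed on leaving out let-7c replicate 1 (0.0976) or mock replicate 1 (0.0535), 2 (0.108) or 3 (0.082), with no filter (0.0676), and in the fit of all probe sets (0.0602); the lowest over all alternatives was 0.00853. Rbx1 rose with miR-294 (0.29 ± 0.04, adjusted p = 0.000239) and with let-7c (0.15 ± 0.04, adjusted p = 0.023), the latter a call that failed on leaving out let-7c replicate 2 (0.0659) or 3 (0.0732) or mock replicate 1 (0.0505), 2 (0.0658) or 3 (0.071) and with no filter (0.0542); the lowest over all alternatives was 0.00323. Skp1 was not called with let-7c (-0.22 ± 0.08, adjusted p = 0.0581), though it passed on leaving out let-7c replicate 2 (0.0335) or mock replicate 1 (0.0436), with the stricter filter (0.0392), with an intensity trend and robust prior (0.0404), and with a replicate block (0.00487); the highest over all alternatives was 0.189.

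Among F-box genes that carry other symbols, Skp2 and Ccnf fell with let-7c. Skp2, the F-box protein that directs the cell-cycle inhibitor p27 for degradation, read 10.07, 10.18 and 10.06 with mock, 9.50, 9.58 and 9.53 with let-7c and 9.48, 9.68 and 9.67 with miR-294. Both treated groups lay below all mock arrays. Skp2 fell with let-7c (-0.57 ± 0.06, adjusted p = 7.21e-05) and with miR-294 (-0.49 ± 0.06, adjusted p = 7.21e-05), and the mimics differed by -0.07 ± 0.06, adjusted p = 0.343. Ccnf, for cyclin F, the F-box protein after which the domain was named, read 11.24, 11.36 and 11.37 with mock, 10.68, 10.70 and 10.75 with let-7c and 11.34, 11.41 and 11.40 with miR-294. It fell with let-7c (-0.61 ± 0.05, adjusted p = 1.36e-05) and differed by 0.06 ± 0.05, adjusted p = 0.347 with miR-294. The demethylase gene Kdm2a fell with miR-294 (-0.41 ± 0.04, adjusted p = 1.54e-05), as did Btrc, the other beta-TrCP gene (-0.17 ± 0.04, adjusted p = 0.00731). Of the 9 genes in this list 0 rose and 2 fell with let-7c; with miR-294 1 rose and 5 fell (medians -0.01 and -0.17). The calls named here on Skp2, Ccnf, Kdm2a and Btrc held under every alternative. Kdm2b, a demethylase related to Kdm2a, rose with miR-294 (0.18 ± 0.06, adjusted p = 0.0392), a call that failed on leaving out miR-294 replicate 2 (0.14) or 3 (0.109) or mock replicate 1 (0.129), 2 (0.0537) or 3 (0.0714), with no filter (0.0705), and in the fit of all probe sets (0.069); the lowest over all alternatives was 0.00491. Lmo7 also fell with miR-294 (-0.22 ± 0.06, adjusted p = 0.0175), a call that failed on leaving out miR-294 replicate 2 (0.0572) or mock replicate 2 (0.0531) or 3 (0.0531); the lowest over all alternatives was 0.00318.

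Cullins work only when the ubiquitin-like protein NEDD8 is attached to them, and the COP9 signalosome takes it off again. Of 13 tested genes of the NEDD8 pathway and cullin exchange, 0 rose and 5 fell with let-7c; with miR-294 4 rose and 4 fell (medians -0.11 and 0.02). Dcun1d4, a helper of NEDD8 transfer, fell with let-7c (-0.66 ± 0.07, adjusted p = 5.1e-05) and with miR-294 (-0.56 ± 0.07, adjusted p = 6.16e-05). The mock arrays of Dcun1d4 read 8.94, 8.95 and 8.69, above the let-7c arrays at 8.19, 8.17 and 8.23 and the miR-294 arrays at 8.26, 8.33 and 8.31. Senp8, the protease that matures NEDD8, fell with let-7c (-0.60 ± 0.08, adjusted p = 0.000373), as did Glmn, an inhibitor of Rbx1 (-0.42 ± 0.07, adjusted p = 0.000862). Nedd8 itself rose with miR-294 (0.36 ± 0.04, adjusted p = 6.35e-05) and differed by 0.06 ± 0.04, adjusted p = 0.36 with let-7c. These 5 calls held under every alternative, except that the stricter filter left out Senp8. Cand2 fell with let-7c (-0.22 ± 0.07, adjusted p = 0.0271), a call that failed on leaving out let-7c replicate 1 (0.0954) or 2 (0.0535) or mock replicate 2 (0.0748) or 3 (0.0933), with no filter (0.0539), and in the fit of all probe sets (0.0551); the lowest over all alternatives was 0.00264. With miR-294 Dcun1d3 fell (-0.28) and Dcun1d5 rose (0.26).

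Of 10 COP9 signalosome genes, 1 rose and 1 fell with let-7c; with miR-294 3 rose and 0 fell (medians -0.08 and 0.09). Cops8 rose with miR-294 (0.40 ± 0.05, adjusted p = 7.2e-05) and differed by -0.04 ± 0.05, adjusted p = 0.567 with let-7c, and Cops9 rose with let-7c (0.27 ± 0.05, adjusted p = 0.00218) and with miR-294 (0.18 ± 0.05, adjusted p = 0.0114). Cops7a rose with miR-294 too (0.20 ± 0.05, adjusted p = 0.00507). The fall of Cops3 with let-7c (-0.14 ± 0.05, adjusted p = 0.0495) failed on leaving out let-7c replicate 1 (0.151) or 3 (0.0601), miR-294 replicate 1 (0.0572), 2 (0.0661) or 3 (0.0626) or mock replicate 1 (0.0706), 2 (0.143) or 3 (0.118), with no filter (0.0984), under quantile normalization (0.0893), and in the fit of all probe sets (0.0704); the lowest over all alternatives was 0.0119. Among 7 other cullins, 0 rose and 2 fell with either mimic (medians 0.01 and -0.05): Cul2 (-0.20 ± 0.04, adjusted p = 0.00648) and Cul4b (-0.16) with let-7c, and Cul7 (-0.31 ± 0.06, adjusted p = 0.00103) and Cul4a (-0.30 ± 0.05, adjusted p = 0.000425) with miR-294. The call on Cul4b (adjusted p = 0.0261) failed on leaving out let-7c replicate 1 (0.0837) or 3 (0.0626) or mock replicate 1 (0.0668), 2 (0.0649) or 3 (0.0697) and with no filter (0.0568); the lowest over all alternatives was 0.00291. By comparison, 13.9% of all tested genes rose and 14.8% fell with let-7c; with miR-294 20.7% rose and 21.1% fell.

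Between the mimics, Rnf7 and Ccnf had the largest differences among the called partner genes. In the list named SCF core 0 were higher and 3 lower with let-7c (median -0.15): Rnf7 (-0.88 ± 0.08, adjusted p = 2.96e-06), Cks1b (-0.55 ± 0.04, adjusted p = 1.32e-06) and Rbx1 (-0.15 ± 0.04, adjusted p = 0.0132). The call on Rbx1 failed under quantile normalization (0.0608), and the lowest over all alternatives was 0.00264. Of the F-box genes with other symbols 4 were higher and 1 lower (median -0.07): Lmo7 (0.38 ± 0.06, adjusted p = 0.000414), Kdm2a (0.37 ± 0.04, adjusted p = 1.38e-05) and Fbh1, for a DNA helicase (0.21 ± 0.05, adjusted p = 0.0033), were higher and Ccnf (-0.67 ± 0.05, adjusted p = 8.84e-07) lower. In the NEDD8 list 3 were higher and 6 lower (median -0.14), among them Glmn (-0.54 ± 0.07, adjusted p = 3.78e-05), Senp8 (-0.38 ± 0.08, adjusted p = 0.00223) and Nedd8 (-0.31 ± 0.04, adjusted p = 0.000121) lower and Dcun1d1 (0.36 ± 0.06, adjusted p = 0.000264) higher. The COP9 list had 0 higher and 6 lower (median -0.15): Cops8 (-0.44 ± 0.05, adjusted p = 1.82e-05), Cops7b (-0.30 ± 0.07, adjusted p = 0.00355), Cops7a (-0.19 ± 0.05, adjusted p = 0.00447) and Gps1 (-0.18 ± 0.04, adjusted p = 0.00538) had the largest differences. The call on Cops7a failed under quantile normalization (0.0968); the lowest over all alternatives was 0.000335. That on Gps1 failed under quantile normalization (0.0705); the lowest over all alternatives was 0.000473. Other cullins had 2 higher, Cul7 (0.45 ± 0.06, adjusted p = 4.64e-05) and Cul4a (0.33 ± 0.05, adjusted p = 0.000148), and 1 lower, Cul2 (-0.24 ± 0.04, adjusted p = 0.000735), with a median of 0.03. All tested genes split 26.2% higher and 24.5% lower.

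**Figure D4:**
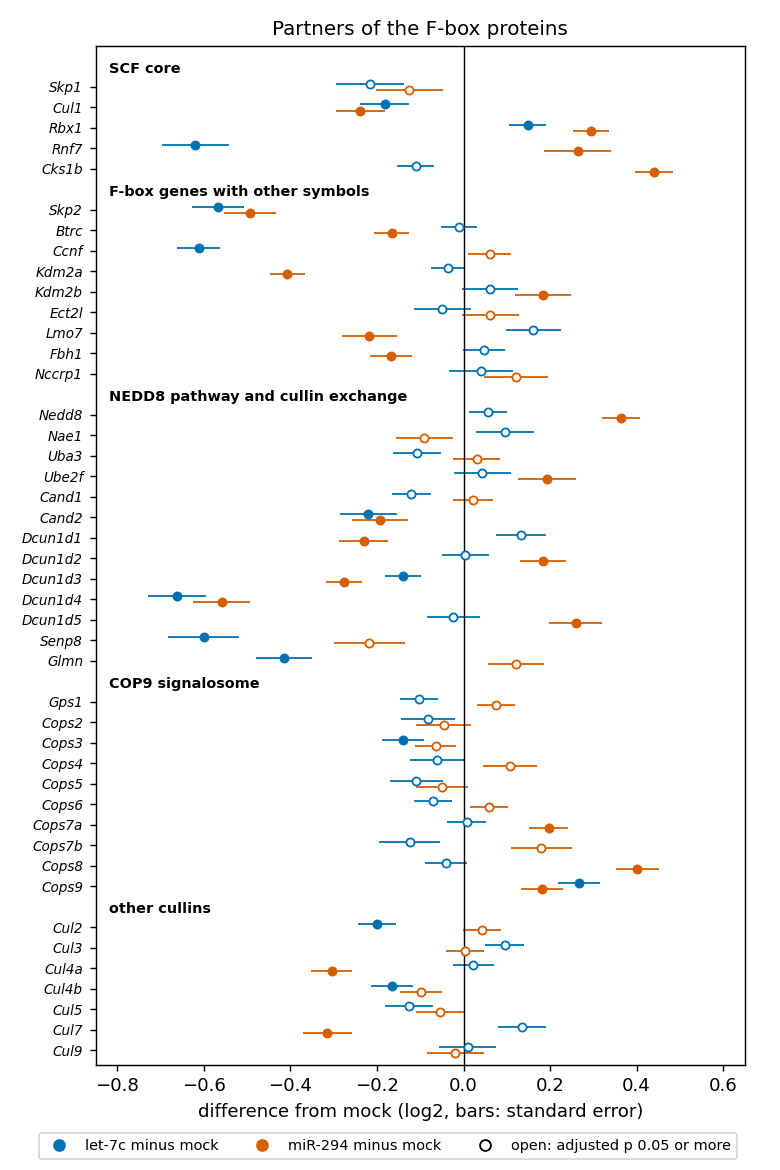
Difference from mock (log2, bars show the standard error, n = 3 per group) of the 44 genes of the partner lists, let-7c in blue and miR-294 in orange. The lists include F-box genes with other symbols and other cullins. Filled points passed an adjusted p of 0.05. Rnf7 is lower with let-7c and higher with miR-294, while Skp2 and Dcun1d4 are lower with both.

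Promoter windows were matched by symbol for 41 of the 53 tested F-box genes in RefSeq's GRCm38.p6 table, and the 250 bases before each start were searched on both strands. The letters CCAAT, bound by NF-Y and common in cell-cycle promoters, were in the windows of 12 of the 41 genes (29.3%), beside 39.7% of 10433 tested genes and 37.5% of all 27025 genes in the table. The E-box CACGTG, bound by Myc with Max and the same on both strands, was in 2 of 41 (4.88%), beside 9.88% of tested genes. The letters TTTGAA, the cell-cycle homology region, were in 6 of 41 (14.6%), beside 12.4% of tested genes. The windows of 2 genes are shown, since Fbxo5 moved in opposite directions with the mimics and Fbxo11 had one of the largest falls with miR-294. Both are on the minus strand, are given 5′ to 3′ and end at the base before the start; capitals mark CCAAT read from the other strand (ATTGG).
Fbxo5, chr10:5805466-5805715: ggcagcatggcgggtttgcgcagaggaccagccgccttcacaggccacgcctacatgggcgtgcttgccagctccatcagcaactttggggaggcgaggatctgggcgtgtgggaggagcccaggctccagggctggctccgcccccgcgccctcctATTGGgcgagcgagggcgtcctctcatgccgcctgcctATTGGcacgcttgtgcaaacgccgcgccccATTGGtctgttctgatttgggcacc
Fbxo11, chr17:88066046-88066295: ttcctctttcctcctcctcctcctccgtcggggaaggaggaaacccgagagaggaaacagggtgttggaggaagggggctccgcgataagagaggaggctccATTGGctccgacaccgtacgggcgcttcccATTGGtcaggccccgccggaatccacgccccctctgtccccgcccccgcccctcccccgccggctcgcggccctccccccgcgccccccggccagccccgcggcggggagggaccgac
The Fbxo5 window held 3 matches, which began 93, 55 and 25 bases before the start, and the Fbxo11 window shown held 2, at 148 and 118 bases. The table has a second Fbxo11 start, whose window (chr17:88064542-88064791) held 0 matches; a gene counted as holding a motif if any of its windows did. The other searched letters were not in these windows. A match is a description of the letters and not of binding.

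The arrays themselves were alike. Array medians lay between 7.36 and 7.41, and within a group the pairwise correlation across tested genes was no lower than 0.995. The median SD of an F-box gene within a group was 0.053 with mock, 0.055 with let-7c and 0.066 with miR-294. Dgcr8 read 8.92, 9.08 and 9.03 with mock, 8.85, 8.94 and 8.91 with let-7c and 9.13, 9.07 and 9.07 with miR-294; the sources used here do not give the deleted segment, and these values do not check the genotype.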

How the data were processed

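Each of the 9 samples was 1 array. The deposited values are log2 intensities that the authors made with GCRMA, per the submitters' processing notes; the version is not given there, and the log2 scale was read from the values. Probe sets were named from GEO's platform annotation, of which those with exactly 1 symbol were used, and the probe set with the highest mean stood for a gene. Genes with 3 or more arrays over that array's 40th percentile entered the fit. One limma fit (3.58.1, R 4.3.3) gave the 3 group means with empirical Bayes moderation, and p-values were adjusted by Benjamini-Hochberg over 13182 genes. The fit was tested on simulated data with known changes in the let-7c group. It recovered 61% of 100 changes of 0.3 and 99% of 100 changes of 1. Of its calls 6.43% were false. Smaller true changes can thus be missed. No other genes of the 13182 were changed in the simulation, far fewer than the data called, and its noise was independent between arrays. These percentages therefore do not measure the power or the false share of the comparisons above. Alternatives covered filters, quantile and percentile scaling, probe set rules, variance settings, a replicate block and leave-one-outs. The number of arrays limits the precision. Deviations from the group means of arrays with the same replicate number correlated at 0.133 to 0.418 for let-7c with mock and 0.272 to 0.363 for miR-294 with mock, above 0.1 in all 6 pairs, so the numbers were taken to pair the samples in these comparisons, from the data and not from the labels; for let-7c with miR-294 they correlated at 0.0285 to 0.248, and 1 of 3 pairs was not above 0.1. Other pairs correlated at -0.361 to 0.149. The fit without the block was kept as the main one, as designed.

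Every member may be named: those called in at least 1 comparison are given with every array's value, the rest by range, and of each partner list up to 4 called genes with the largest difference per comparison, plus Btrc and Skp1, chosen after their values were seen. The members and lists were chosen with earlier results of these data known.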

Additional observations from a re-analysis of the deposited data

How the results depend on the processing

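The F-box counts were refitted under 17 alternatives, and 0 of the named genes' calls reversed on the probe sets followed. The fit of all probe sets was checked on each gene's main probe set alone. In that fit the second probe set of Fbxo31 rose with miR-294 (0.14 ± 0.04, adjusted p = 0.0253), while the fall of its main probe set failed (0.0703). Of the 62 calls on F-box genes, 46 held under all alternatives that tested the gene and 16 ended under at least 1: 8 of 17 for let-7c against mock, 3 of 19 for miR-294 against mock and 5 of 26 between the mimics. Of 97 comparisons without a call, 15 passed under at least 1 alternative. Of 63 calls on partner genes, 41 held and 22 ended somewhere. The 9 F-box genes higher with let-7c than mock became 5 with every probe set tested, and the 8 lower became 5 under quantile normalization. In this comparison 28.7% of all tested genes were called in the main fit. With every probe set it was 19% of the probe sets, and under quantile normalization 28.1% of the genes.

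Leaving out 1 array at a time gave 5 to 9 higher and 5 to 8 lower for let-7c against mock, 5 to 8 higher and 11 to 13 lower for miR-294 against mock, and 15 to 17 higher and 8 to 9 lower with let-7c against miR-294. For let-7c against mock, 5 higher came without let-7c replicate 1 or 3 and 5 lower without mock replicate 2. For miR-294 against mock, 5 higher came without miR-294 replicate 3. The same leave-one-outs called 20.4% to 29% of all tested genes for let-7c against mock. For miR-294 against mock it was 34.2% to 43.5%, and between the mimics 45.7% to 50.1%. With a replicate block the counts were 10 higher and 9 lower for let-7c, 9 and 14 for miR-294, and 18 and 10 between the mimics. With the block 34.6%, 46.9% and 54.9% of all tested genes were called in the same order, beside 28.7%, 41.9% and 50.8% without it. The block ended 0 calls; the F-box differences that newly passed (2, 4 and 2 in the same order) are given with their blocked p beside their values, and among partners Skp1 and Cand1 newly passed with let-7c and Skp1, Senp8 and Cops7b with miR-294, besides 3 between the mimics. Between the mimics, the 18 F-box genes higher and 8 lower with let-7c became 16 and 11 with arrays centred on the 75th percentile. With the stricter filter, which left out dim members, they became 12 and 8. All tested genes split 3204 higher and 3606 lower in the former and 2921 and 3037 in the latter. Signal limits the members near the filter level, such as Fbxl4, Fbxo4 and Fbxl22.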
